A study of Mus musculus with 36 samples.

Results

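UDP-glucuronosyltransferases were measured as mRNA in the livers of wild-type mice and of mice lacking Bmal1, the clock activator whose gene is listed under the symbol Arntl. The genes described are Ugt1a1, Ugt1a9, Ugt2a3, Ugt2b1, Ugt2b5, Ugt2b34, Ugt2b35, Ugt2b36 and Ugt3a2, taken by symbol from the deposited count table: 9 of the 21 UDP-glucuronosyltransferase genes, and of the 21654 genes, that it lists. All 9 had enough reads to be tested, as had 13201 genes in all.

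UDP-glucuronosyltransferases sit in the endoplasmic reticulum and move a sugar, in most of the family glucuronic acid from UDP-glucuronate, onto bilirubin, bile acids, steroids, drugs and plant phenols, which makes them soluble enough to leave in bile or urine. The liver is the main site of this conjugation. Genes of the Ugt1a locus each have a first exon and promoter of their own and are spliced to common downstream exons, whereas Ugt2 and Ugt3 genes are separate units; several are known to differ between the sexes in mouse liver and to answer to xenobiotic receptors.

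Livers came from C57BL/6 mice, 18 wild type aged 6.4 to 13.9 weeks and 18 Bmal1 knockout aged 8 to 13.9 weeks, with 9 labelled females and 9 labelled males in each genotype. Mice were kept in alternating 12 h spans of light and dark and fed freely, and 3 per genotype were killed at each of 6 Zeitgeber times (ZT, hours after lights on): ZT0, ZT4, ZT8, ZT12, ZT16 and ZT20. By label, ZT0, ZT8 and ZT16 had 1 female and 2 males per genotype, and ZT4, ZT12 and ZT20 had 2 females and 1 male. The labels' protocol abbreviates the knockout as cKO and names no Cre line, promoter or deleted exon. The labels give 1 strain, housing and free feeding for both genotypes and name no other treatment. Each library is from 1 mouse, although the labels do not say whether mice of different genotypes were littermates, and the mice came from 20 cages, of which 5 held a wild-type and a knockout mouse of the same labelled sex killed at the same time.

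Library totals ran from 12657858 to 12839653 counts (median 12744399). Values are CPM, counts per 1000000 counts of the library total after TMM scaling. Arntl lay between 0.793 and 41.3 CPM over the wild-type libraries and between 14.6 and 24 CPM over the knockout libraries. Such a count covers the whole gene and cannot check a deleted exon. The 12 libraries of ZT16 and ZT20 stood apart: they lay from 14.2 to 103 on the first principal component (32.8% of the variance), against -37.2 to -12.5 for the other 24, and the correlation over genes of expression, relative to the mean library, with transcript GC content was -0.60 to -0.16 in them and 0.15 to 0.47 in the others. The labels give no batch for these times, so time of night and library preparation cannot be told apart there. The wild-type ZT16 replicate 3 (replicate numbers only name libraries) is labelled female but had 4 counts of Xist and 1874 of Ddx3y, where the other 8 wild-type labelled females had 8604 to 15138 of Xist and at most 1 of Ddx3y. Values without the libraries of ZT16 and ZT20, or without this one, stand beside the results they bear on. Of the hepatocyte markers, 9 of 9 in the table were detected, their sum spanning 31000 to 45600 CPM among wild-type mice and 33500 to 56000 CPM in knockout.

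On mm9, the build of the deposited table, Ugt1a9 (ENSMUSG00000090175) spans chr1:89967375-90115572 and Ugt1a1 (ENSMUSG00000089960) spans chr1:90108534-90115572, so that they end on the same base. The 6 Ugt2 genes lie in 1 stretch of chromosome 5: Ugt2b34 at chr5:87318792-87335962, Ugt2b1 at chr5:87345663-87355555, Ugt2b35 at chr5:87429885-87442299, Ugt2b36 at chr5:87494952-87521580, Ugt2b5 at chr5:87553981-87569365 and Ugt2a3 at chr5:87753997-87766220. Ugt3a2 lies at chr15:9265305-9300710. Sequence is shared between copies. Of all 50-base windows of its longest GENCODE transcript, Ugt1a1 shared 58.2% with another UDP-glucuronosyltransferase gene, Ugt1a9 62% and Ugt2b5 41.7%. Shares were 8.55% for Ugt3a2, 3.77% for Ugt2a3, 1.45% for Ugt2b34, 0.326% for Ugt2b36, and none for Ugt2b1 and Ugt2b35. The deposited counts are a minimum form, and their treatment of shared reads is not given in the sources used here. Ugt1a8 had 0 to 2 counts per library while Ugt1a1 reached 5842, so reads of the common exons were not added to every Ugt1a gene. Counts of Ugt1a1, Ugt1a9 and Ugt2b5 are therefore uncertain as absolute levels, and the lowest were small for Ugt1a9 (9 counts in knockout, 304 in wild type) and for Ugt1a1 (198 and 165), against at least 2435 for each of the other 7 genes.

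Promoter windows of 250 bases before the RefSeq start (GRCm38.p6, a later build than that of the counts) are printed for the 5 Ugt2b genes described, neighbours in 1 cluster, to show a stretch near the start that they share. Capitals mark the match to GTTANNNNTTAAC, a run of letters that these windows share. The windows are Ugt2b1 at chr5:86926504-86926753, minus strand, Ugt2b34 at chr5:86906938-86907187, minus strand, Ugt2b35 at chr5:87000610-87000859, plus strand, Ugt2b36 at chr5:87092556-87092805, minus strand and Ugt2b5 at chr5:87140341-87140590, minus strand. The pattern was chosen after the sequences had been read.
Ugt2b1: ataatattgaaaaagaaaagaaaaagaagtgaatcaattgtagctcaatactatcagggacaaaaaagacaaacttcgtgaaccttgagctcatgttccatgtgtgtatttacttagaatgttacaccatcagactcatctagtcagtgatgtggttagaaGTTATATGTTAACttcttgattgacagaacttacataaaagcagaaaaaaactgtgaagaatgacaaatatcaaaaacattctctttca
Ugt2b34: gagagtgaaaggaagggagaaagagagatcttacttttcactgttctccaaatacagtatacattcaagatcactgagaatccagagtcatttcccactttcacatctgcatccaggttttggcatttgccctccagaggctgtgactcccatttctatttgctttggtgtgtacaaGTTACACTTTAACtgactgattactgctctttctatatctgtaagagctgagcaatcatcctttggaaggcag
Ugt2b35: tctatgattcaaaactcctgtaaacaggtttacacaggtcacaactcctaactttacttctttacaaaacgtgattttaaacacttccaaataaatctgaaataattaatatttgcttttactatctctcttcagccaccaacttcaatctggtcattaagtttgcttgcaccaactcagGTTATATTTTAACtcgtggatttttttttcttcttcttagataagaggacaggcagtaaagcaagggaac
Ugt2b36: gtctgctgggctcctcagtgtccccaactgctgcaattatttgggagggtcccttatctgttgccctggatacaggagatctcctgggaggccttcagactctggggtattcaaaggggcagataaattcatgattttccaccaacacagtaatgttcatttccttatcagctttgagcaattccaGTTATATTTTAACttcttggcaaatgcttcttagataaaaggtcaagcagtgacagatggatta
Ugt2b5: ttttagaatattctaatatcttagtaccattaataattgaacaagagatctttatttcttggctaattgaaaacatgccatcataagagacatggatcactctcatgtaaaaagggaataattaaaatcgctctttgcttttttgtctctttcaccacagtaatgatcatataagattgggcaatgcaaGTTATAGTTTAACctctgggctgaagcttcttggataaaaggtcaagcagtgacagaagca

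Counted upstream from the start, the matches took bases 89 to 77 in Ugt2b1, 73 to 61 in Ugt2b34, 70 to 58 in Ugt2b35, 64 to 52 in Ugt2b36 and 61 to 49 in Ugt2b5. Searched on both strands, GTTANNNNTTAAC stood in 56 of 32851 RefSeq windows of the same length (0.17%). The narrower GTTATANNTTAAC, which is contained in it, stood in 7 (0.0213%), among them Ugt2b1, Ugt2b5, Ugt2b35 and Ugt2b36 but not Ugt2b34. The windows of Ugt2b37 and Ugt2b38 hold GTTATANNTTAAC too. Over the 36 libraries, r of log2 CPM (Pearson) of Ugt2b37 was 0.27 with Ugt2b1, 0.25 with Ugt2b5, -0.27 with Ugt2b35 and 0.10 with Ugt2b36. For Ugt2b38 these were 0.80, 0.70, 0.55 and 0.47, in the same order. For Ugt2a3, whose window lacks the letters, they were 0.66, 0.80, 0.40 and 0.84. Whether the letters bear on the levels was not tested. The letters CACGTG (E-box; 6.02% of windows) and TAGGTCA (2.23%) were found in no window of the 8 genes that had one, and TTATGTAA (0.819%), a D-box, only in that of Ugt2b1. Ugt3a2 has no entry in the promoter table. A match describes letters only.

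The Ugt1a9 window is set beside that of Ugt1a10, a neighbour in the locus whose counts were also lower in knockout, with capitals marking their longest shared run of 32 bases. Ugt1a9 lies at chr1:88070529-88070778, plus strand, and Ugt1a10 at chr1:88055161-88055410, plus strand. The windows were 81.9% identical when aligned, against 51.8% for Ugt1a9 and Ugt1a1 and 48.9% for Ugt1a9 and Ugt1a5, another neighbour with fewer counts in knockout. The pair was set side by side with these counts known, and whether the sequence bears on them was not tested.
Ugt1a9: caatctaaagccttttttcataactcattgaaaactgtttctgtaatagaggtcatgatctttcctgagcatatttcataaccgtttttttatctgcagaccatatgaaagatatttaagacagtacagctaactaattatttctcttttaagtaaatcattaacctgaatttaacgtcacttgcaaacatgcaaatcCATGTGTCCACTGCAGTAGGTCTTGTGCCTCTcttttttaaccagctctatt
Ugt1a10: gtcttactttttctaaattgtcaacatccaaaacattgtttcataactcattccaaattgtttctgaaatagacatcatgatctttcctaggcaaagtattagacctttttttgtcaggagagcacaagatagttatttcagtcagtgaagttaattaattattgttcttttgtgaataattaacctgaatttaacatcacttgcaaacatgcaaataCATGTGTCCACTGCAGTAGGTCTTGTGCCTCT

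Per kilobase of transcript, which allows different genes to be set side by side, wild-type livers held most Ugt2b5 mRNA (734 ± 385 CPM per kb, SD, n = 18), a steroid-conjugating enzyme. Ugt2b36 (583 ± 270) and Ugt2b1 (471 ± 428), whose rat counterpart conjugates opioids and steroids, came next. Then followed Ugt2a3 (284 ± 155), whose human counterpart conjugates bile acids, Ugt3a2 (209 ± 50.4), of a subfamily that uses other UDP-sugars, Ugt2b34 (189 ± 50.4), Ugt2b35 (98.2 ± 31.1), the bilirubin-conjugating Ugt1a1 (96.6 ± 56.5) and Ugt1a9 (21.4 ± 10.7), whose human counterpart conjugates phenols. Neighbours in this order overlapped within 1 SD, except Ugt2b34 over Ugt2b35 and Ugt1a1 over Ugt1a9. In knockout the levels, in the same unit, were 780 ± 423 for Ugt2b5, 745 ± 351 for Ugt2b36, 671 ± 620 for Ugt2b1, 269 ± 131 for Ugt2a3, 256 ± 46.8 for Ugt3a2, 164 ± 44.7 for Ugt2b34, 151 ± 51.3 for Ugt2b35, 61.9 ± 41.2 for Ugt1a1 and 4.2 ± 4.74 for Ugt1a9 (SD, n = 18). The order of the genes was the same in both genotypes. Counted over only the sequence that no other family member shares, the wild-type levels of Ugt1a1 and Ugt1a9 were 236 and 57.8 CPM per kb and that of Ugt2b5 was 1290. The 9 genes together took 6170 ± 2740 CPM of wild-type and 7100 ± 3520 CPM of knockout reads (SD, n = 18 mice each), with ranges of 3650 to 14900 and 4010 to 17200 CPM. Ugt2b1, Ugt2b5 and Ugt2b36 made up 56.7% ± 7.98 of that sum in wild type and 61.3% ± 8.01 in knockout.

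The first comparison asked how loss of Bmal1 changed the liver's transferase mRNAs over the day. Ugt1a9 fell 7.7-fold, Ugt1a1 1.64-fold and Ugt2b34 1.15-fold in knockout, whereas Ugt2b35 rose 1.53-fold, Ugt2b36 1.25-fold and Ugt3a2 1.23-fold. The 6 genes called, 3 in each direction, are 6 of 9 where 35.7% of all tested genes were called (17.6% higher and 18.1% lower in knockout). Called means a Benjamini-Hochberg adjusted p under 0.05 over all 13201 genes in edgeR's quasi-likelihood test, with genotype-by-time means and labelled sex in the model. With cage as a further block, which left few degrees of freedom, 0 of the 9 were called (0.371% of all tested genes). The median log2 fold change of the 9 genes, knockout over wild type, was 0.04, against 0.01 over all tested genes.

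Of the 9 genes, Ugt1a9 had the largest fold change between genotypes. Its wild-type levels at ZT0 were 69.6, 44.4 and 62.4 CPM, at ZT4 56.2, 45.3 and 30.9, at ZT8 58.5, 24.6 and 39.4, at ZT12 33.3, 109 and 89.6, at ZT16 28.8, 33 and 29.8, and at ZT20 35.2, 28.2 and 27 CPM. In knockout the levels at ZT0 were 2.01, 1.89 and 25.3 CPM, at ZT4 21.2, 1.48 and 29, at ZT8 2.03, 2.32 and 12.7, at ZT12 7.47, 30.5 and 2.16, at ZT16 1.01, 0.75 and 11.7, and at ZT20 10.5, 1.01 and 2.66 CPM. At each of the 6 times the highest knockout library was below the lowest wild-type library of that time. The share of all tested genes without overlap was not counted, here or in the paragraphs below. Calls are a different measure, and covered 1.97% to 11.9% of all tested genes at single times. Over the day the genotypes overlapped, since 3 knockout females (25.3, 29 and 30.5 CPM) exceeded the lowest wild-type library, a male at 24.6 CPM. The log2 fold change was -2.94 ± 0.30 (SE, adjusted p = 1.2e-08). The low levels within knockout are those of the labelled males: 0.75 to 2.32 CPM in 9 males (9 to 30 counts) and 2.66 to 30.5 CPM in 9 females (34 to 405 counts).

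**Figure D1:**
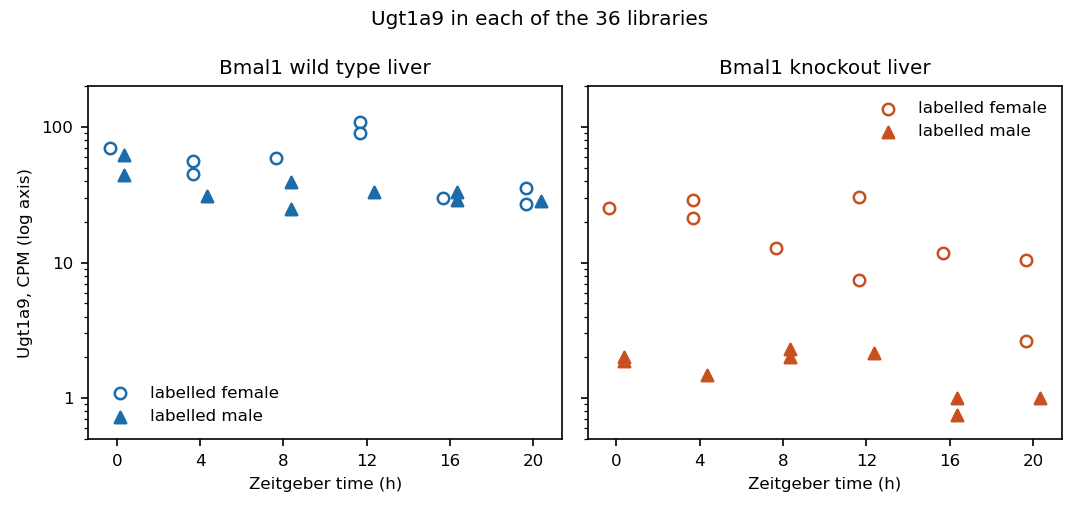
Ugt1a9 level in CPM on a log axis for each of the 36 libraries against Zeitgeber time in hours, wild type on the left and knockout on the right, with open circles for labelled females and filled triangles for labelled males. Wild-type libraries lie between 24.6 and 109 CPM; in knockout the males lie between 0.75 and 2.32 CPM and the females between 2.66 and 30.5 CPM.

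Ugt1a9 was lower in knockout in each sex taken alone. Among males the log2 fold change was -4.48 ± 0.17 (SE, adjusted p = 6.4e-07), and knockout males (0.75 to 2.32 CPM) did not overlap wild-type males (24.6 to 62.4 CPM). Among females it was -1.78 ± 0.29 (adjusted p = 0.0019), and -1.86 ± 0.31 (adjusted p = 0.002) without the ZT16 libraries, 1 of which goes against its sex label. Knockout females, at 2.66 to 30.5 CPM (median 12.7), overlapped wild-type females, at 27 to 109 CPM (median 56.2). Without ZT16 and ZT20 the log2 fold change over both sexes was -2.77 ± 0.32 (adjusted p = 9.9e-07), and in those 2 times alone it was -3.25 ± 0.58 (adjusted p = 0.013). Ugt1a9 was the 1 gene of the 9 called in the ZT16 and ZT20 libraries alone, where 3.52% of tested genes were.

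Ugt1a1, the enzyme that conjugates bilirubin, spanned 15.6 to 427 CPM in wild type (median 238) and 18.3 to 338 CPM in knockout (median 127). Its wild-type levels were 285, 204 and 195 CPM at ZT0, 301, 308 and 220 at ZT4, 310, 299 and 257 at ZT8, 271, 406 and 427 at ZT12, 15.6, 107 and 86.6 at ZT16 and, last, 66.3, 86.3 and 20.4 at ZT20. In knockout they were 93.6, 145 and 218 CPM at ZT0, 213, 111 and 274 at ZT4, 143, 87.1 and 209 at ZT8, 338, 183 and 194 at ZT12, 22.4, 24.2 and 42.8 at ZT16 and, last, 66.3, 18.3 and 94.1 at ZT20. Knockout libraries lay below all wild-type libraries of their time at ZT8 and overlapped them at the other 5 times. The log2 fold change was -0.71 ± 0.20 (SE, adjusted p = 0.0058), and -0.71 ± 0.11 (adjusted p = 4.6e-05) without ZT16 and ZT20. Males alone gave -1.19 ± 0.32 (adjusted p = 0.031). Females alone gave -0.35 ± 0.22 (adjusted p = 0.3), and -0.21 ± 0.22 (adjusted p = 0.54) without their ZT16 libraries, neither of which passed the test.

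Among the other 12 transferase genes in the table, 8 had enough reads to be tested. Of these 5 were called (35.7% of all tested genes were), 4 lower and 1 higher in knockout. Their median log2 fold change, over the 8, was -0.63. The lower ones include the locus neighbours Ugt1a5, from 36.8 CPM in wild type to 8.73 CPM in knockout (log2 fold change -2.10 ± 0.30, adjusted p = 2.1e-06), and Ugt1a6a, from 63.4 to 54.5 CPM (-0.22 ± 0.07, adjusted p = 0.01). Ugt1a10 had 3 to 32 counts per wild-type library and 0 to 2 per knockout library (adjusted p = 1.8e-10). Ugt2b37 went from 10.4 to 2.84 CPM (-1.77 ± 0.38, adjusted p = 0.00063). Ugt3a1, the neighbour of Ugt3a2, rose from 71.9 to 84.8 CPM (0.23 ± 0.08, adjusted p = 0.031). Ugt1a6b, in the same locus as Ugt1a9, was at 22.3 and 24.1 CPM, a log2 fold change of 0.12 with a 95% interval of -0.19 to 0.44. All of Ugt1a6a's 50-base windows occur in another family member, so its count is uncertain.

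Ugt2b35 rose in knockout. Its wild-type levels were 178, 361 and 381 CPM at ZT0, 230, 215 and 359 at ZT4, 283, 551 and 432 at ZT8, 413, 205 and 211 at ZT12, 447, 338 and 427 at ZT16 and, last, 221, 366 and 318 at ZT20. Knockout levels were 532, 516 and 289 CPM at ZT0, 328, 507 and 254 at ZT4, 511, 604 and 435 at ZT8, 446, 417 and 502 at ZT12, 802, 637 and 731 at ZT16 and, last, 429, 867 and 298 at ZT20. All knockout libraries exceeded all wild-type libraries of their time at ZT12 and ZT16, and the genotypes overlapped at the other 4 times. The log2 fold change was 0.61 ± 0.10 (SE, adjusted p = 1.2e-05). It was 0.59 ± 0.11 in males alone (adjusted p = 0.0057) and 0.66 ± 0.11 in females alone (adjusted p = 0.0024; 0.64 ± 0.12, adjusted p = 0.0049, without their ZT16 libraries). Without ZT16 and ZT20 it was 0.52 ± 0.08 (adjusted p = 2.1e-05).

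Ugt2b36 and Ugt3a2 rose by less. Ugt2b36 spanned 668 to 2800 CPM in wild type (median 994) and 732 to 3200 CPM in knockout (median 1200), with broad overlap, and its log2 fold change was 0.32 ± 0.12 (SE, adjusted p = 0.029). The call was lost without knockout ZT16 replicate 1 or knockout ZT20 replicate 2 (adjusted p = 0.057 to 0.067). Ugt3a2 spanned 355 to 802 CPM in wild type (median 450) and 460 to 903 CPM in knockout (median 569), with a log2 fold change of 0.30 ± 0.06 (adjusted p = 0.00053). Its lowest knockout library, at 460 CPM, was above the wild-type median. Ugt3a2 was called in males alone (0.50 ± 0.09, adjusted p = 0.0038). In females alone it was 0.18 ± 0.08 (adjusted p = 0.14), and 0.09 ± 0.08 (adjusted p = 0.49) without their ZT16 libraries. Without ZT16 and ZT20 both genes were called, Ugt2b36 at 0.29 ± 0.07 (adjusted p = 0.002) and Ugt3a2 at 0.31 ± 0.06 (adjusted p = 0.00016).

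Ugt2b34 fell slightly, from 546 to 1280 CPM in wild type (median 786) to 512 to 1110 CPM in knockout (median 640), and its log2 fold change was -0.20 ± 0.08 (SE, adjusted p = 0.035). This call rested on single libraries. It was lost, at adjusted p of 0.051 to 0.062, when any 1 of 9 libraries was left out: wild-type ZT8 replicate 3, ZT12 replicate 2, ZT16 replicate 3 or ZT20 replicate 3, or knockout ZT8 replicate 1 or 2, ZT12 replicate 2 or ZT20 replicate 1 or 3. Without ZT16 and ZT20 it was -0.19 ± 0.06 (adjusted p = 0.018).

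Ugt2b1, Ugt2a3 and Ugt2b5 did not pass the test over all 36 libraries. Ugt2b1 spanned 326 to 4600 CPM in wild type (median 946) and 256 to 6680 CPM in knockout (median 1320). Its log2 fold change was 0.48 ± 0.22 (SE, 95% interval 0.04 to 0.92, adjusted p = 0.096). Ugt2b1 passed in males alone, where knockout males held 1230 to 6680 CPM (median 2230) and wild-type males 638 to 4600 CPM (median 1120): the log2 fold change was 1.02 ± 0.27 (adjusted p = 0.029). In females alone it was 0.04 ± 0.27 (adjusted p = 0.95), and 0.27 ± 0.30 (adjusted p = 0.55) without their ZT16 libraries. The highest of the wild-type labelled females, at 3150 CPM, is the ZT16 library that goes against its label, and the next was at 1780 CPM. It also passed without ZT16 and ZT20 (0.75 ± 0.14, adjusted p = 0.00031), with each library's GC trend removed (0.50 ± 0.19, adjusted p = 0.032), and without wild-type ZT16 replicate 3, wild-type ZT20 replicate 3 or knockout ZT20 replicate 3 (adjusted p = 0.019 to 0.047). Ugt2a3 spanned 326 to 1620 CPM among wild-type mice and 342 to 1330 CPM in knockout, with medians of 502 and 442. Its log2 fold change was -0.07 (95% interval -0.32 to 0.19), and -0.05 ± 0.06 (adjusted p = 0.55) without ZT16 and ZT20. Ugt2b5, at 703 to 3720 and 729 to 3510 CPM with medians of 1180 and 1260, had a log2 fold change of 0.04 (95% interval -0.21 to 0.29), and -0.02 ± 0.08 (adjusted p = 0.86) without ZT16 and ZT20.

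**Figure D2:**
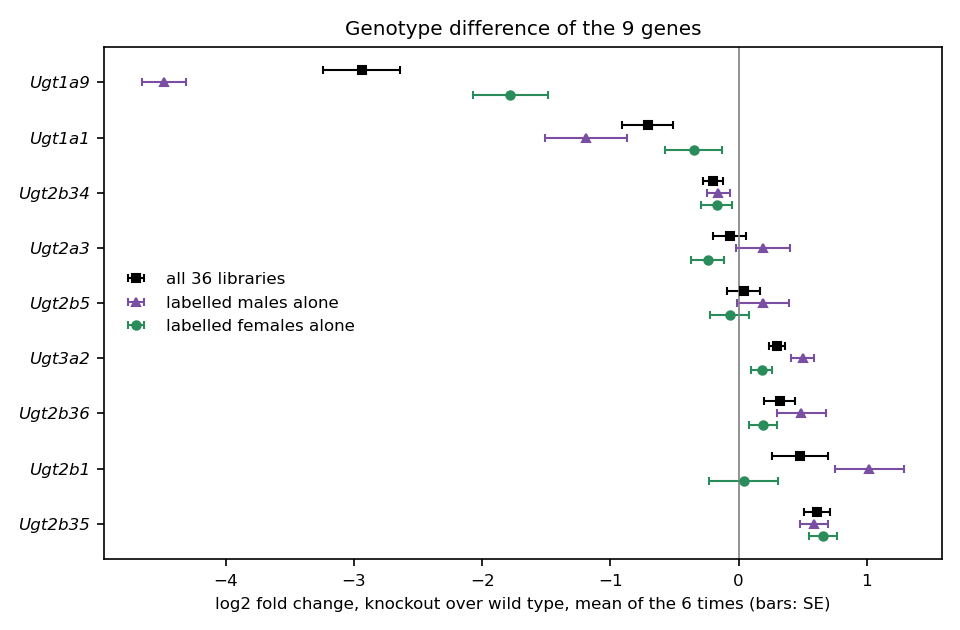
Log2 fold change of knockout over wild type, with the standard error as bars, for the 9 genes over all 36 libraries, the labelled males alone and the labelled females alone. Ugt1a9 lies at -2.94 over all libraries, -4.48 in males and -1.78 in females, and Ugt2b35 lies at 0.61, 0.59 and 0.66.

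Males alone gave 5 of 9 genes called where 14.7% of tested genes were, and females alone gave 2 of 9 where 17.1% were. The 5 were Ugt1a9, Ugt1a1, Ugt2b1, Ugt2b35 and Ugt3a2, and the 2 were Ugt1a9 and Ugt2b35. Whether the sexes differ is tested with the sex comparison.

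With cage as a block the genotype calls did not hold. Added to the fit to all 36 libraries, cage left 4 residual degrees of freedom, and edgeR called 0 of the 9 genes (0.371% of all tested genes), with 2, Ugt1a9 and Ugt2b35, at an unadjusted p under 0.05. The log2 fold change of Ugt1a9 was then -2.45 ± 0.72 (SE, adjusted p = 0.28) and that of Ugt2b35 was 0.60 ± 0.23 (adjusted p = 0.46). The other genes called without the block stood at -0.81 ± 0.61 for Ugt1a1, -0.28 ± 0.26 for Ugt2b34, 0.25 ± 0.37 for Ugt2b36 and 0.46 ± 0.25 for Ugt3a2 (adjusted p = 0.73 to 0.99). In the 10 libraries of the 5 cages that held both genotypes at one time, also with 4 residual degrees of freedom, edgeR called 0 of 9 (1.17% of tested genes), again with Ugt1a9 (-2.51 ± 0.56, adjusted p = 0.089) and Ugt2b35 (0.79 ± 0.18, adjusted p = 0.09) at an unadjusted p under 0.05. Without the cage of wild-type ZT16 replicate 3 edgeR also called 0 of 9 (0.653% of tested genes), and these were -2.90 ± 0.61 (adjusted p = 0.13) and 0.79 ± 0.22 (adjusted p = 0.23). All 6 genes kept their direction in each of these 3 fits.

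At single times, with 3 mice of each genotype, Ugt1a9 and Ugt2b35 were the genes called. Ugt1a9 fell at ZT0 (log2 fold change -3.33 ± 0.72, SE, adjusted p = 0.01), ZT8 (-3.23 ± 0.74, 0.0042), ZT12 (-2.71 ± 0.69, 0.0095), ZT16 (-3.49 ± 0.76, 0.0035) and ZT20 (-3.10 ± 0.74, 0.016). At ZT4 it was -1.80 ± 0.68 (95% interval -3.12 to -0.47, adjusted p = 0.16). The model has 1 sex term for both genotypes, while the mix of sexes changes with time: the values at ZT0, ZT8 and ZT16, with 1 female and 2 males, were all further from 0 than those at ZT4, ZT12 and ZT20, with 2 females and 1 male. Time and mix of sexes cannot be told apart in these values. Ugt2b35 rose at ZT12 (0.80 ± 0.24, adjusted p = 0.026) and ZT16 (0.83 ± 0.24, adjusted p = 0.027). With the GC trend removed, Ugt2b35 at ZT16 was 0.62 (adjusted p = 0.07) and Ugt1a9 -3.56 (0.0033). Without wild-type ZT16 replicate 3 they were 1.15 (0.0046) and -3.99 (0.0015). In a fit to the ZT16 libraries alone neither gene was called (0.82, adjusted p = 0.33, and -3.73, 0.15). Of all tested genes, ZT0 gave 1.97% called, ZT4 3.56%, ZT8 8.56%, ZT12 11.9%, ZT16 8.61% and ZT20 3.38%. At ZT4 edgeR called 0 of the 9 genes, with 2 at an unadjusted p under 0.05, and DESeq2 also called 0. The test that the 6 genotype differences are unequal called 0 of the 9 genes (1.67% of all tested genes), with 0 at an unadjusted p under 0.05 and 0 by DESeq2.

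Of these 7 calls, 5 were lost when single libraries were left out. Ugt1a9 at ZT0 was lost without wild-type ZT0 replicate 3 or knockout ZT0 replicate 1 or 2 (adjusted p = 0.061 to 0.092), at ZT12 without knockout ZT12 replicate 1 or 3 (0.057 to 0.058), and at ZT20 without wild-type ZT20 replicate 2 or knockout ZT20 replicate 3 (0.062 to 0.12). Ugt2b35 was lost at ZT12 without wild-type ZT12 replicate 2 or 3 or knockout ZT12 replicate 1 or 2 (0.077 to 0.11), and at ZT16 without wild-type ZT16 replicate 2 or knockout ZT16 replicate 1 or 3 (0.057 to 0.22). Other calls were gained (adjusted p = 0.01 to 0.048): Ugt1a1 and Ugt2b36 at ZT16 without wild-type ZT16 replicate 1, Ugt3a2 at ZT8 without wild-type ZT20 replicate 2, Ugt3a2 at ZT16 without wild-type ZT16 replicate 1, wild-type ZT20 replicate 2 or knockout ZT20 replicate 2, Ugt2b34 at ZT20 without knockout ZT20 replicate 2, and Ugt2b35 at ZT20 without knockout ZT20 replicate 3. Without the sex covariate edgeR called 0 of the 54 gene-by-time tests, with 12 at an unadjusted p under 0.05.

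The second comparison asked which transferase mRNAs varied over the 24 h day and whether Bmal1 loss changed that. Ugt1a1 was high from ZT0 to ZT12 and low at ZT16 and ZT20 in both genotypes, whereas most Ugt2 genes peaked at about ZT16. A 24 h cosine curve was called for 7 of 9 genes in wild type (56.4% of all tested genes were) and for 6 of 9 in knockout (48.3%). A difference in rhythm between genotypes was called for 0 of 9 genes by edgeR (2.23% of all tested genes), with 0 at an unadjusted p under 0.05 and 0 by DESeq2. With 6 times over 1 day, the curve cannot be told from other differences between times of similar course.

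Of the 9 genes, Ugt1a1 had the widest swing in wild type: the fitted curve peaked at ZT6.78 with a peak-to-trough fold of 5.49 (adjusted p = 0.005), and in knockout at ZT6.38 with a fold of 4.96 (adjusted p = 0.012). Its 12 wild-type libraries of ZT0 to ZT12 held 195 to 427 CPM (median 292) and its 6 of ZT16 and ZT20 held 15.6 to 107 CPM (median 76.3). The corresponding knockout values were 87.1 to 338 CPM (median 188) and 18.3 to 94.1 CPM (median 33.5). Within each genotype these sets overlapped only in knockout, by the 94.1 CPM of 1 ZT20 library.

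**Figure D3:**
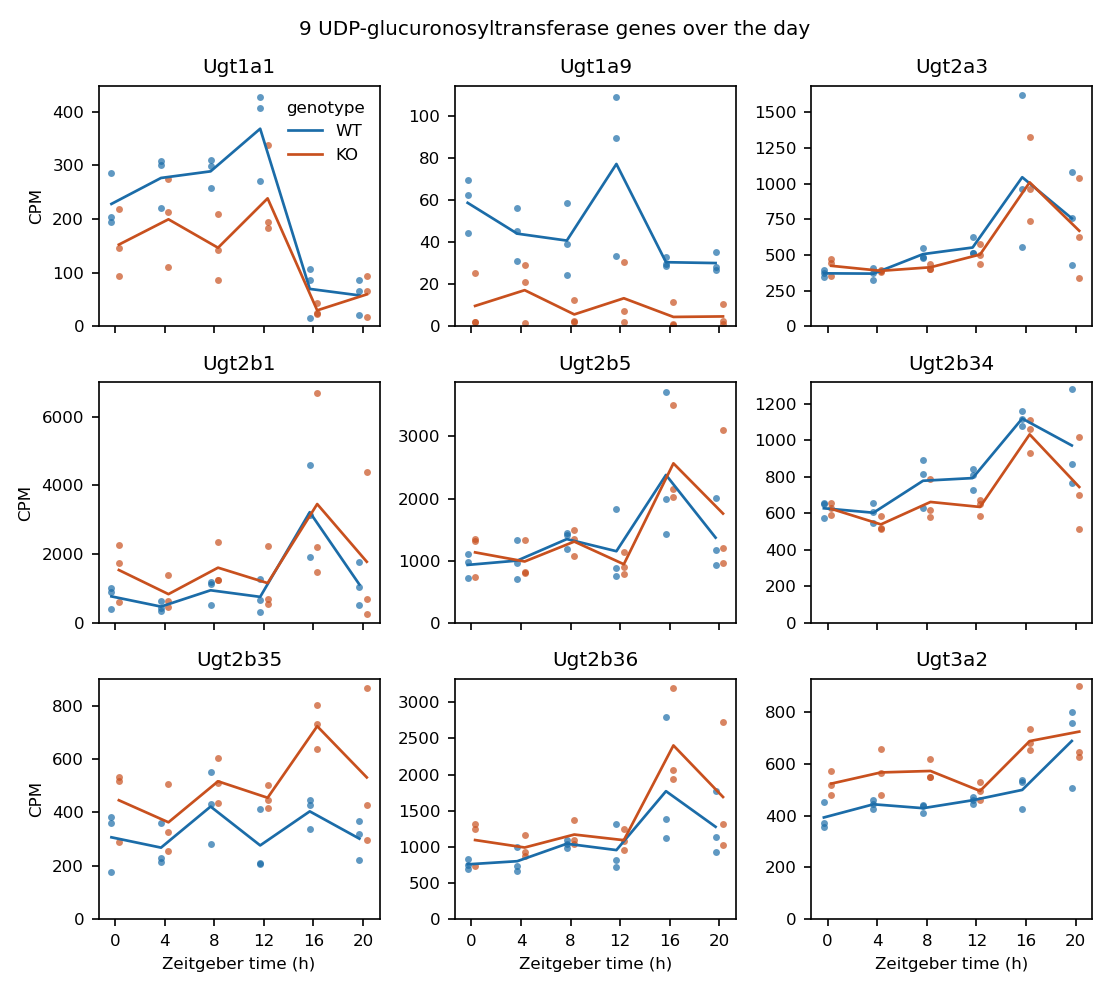
Level in CPM against Zeitgeber time in hours for each of the 9 genes, with points for libraries, lines through the means of 3 mice, wild type in blue and knockout in orange. Ugt1a1 means lie between 228 and 368 CPM from ZT0 to ZT12 and at 69.7 and 57.7 CPM at ZT16 and ZT20 in wild type, while the means of Ugt2b1, Ugt2b5, Ugt2b36 and Ugt2a3 are highest at ZT16 in both genotypes.

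Ugt2a3 averaged 372 ± 23 CPM at ZT0 and 1050 ± 538 CPM at ZT16 in wild type, and 424 ± 60.7 and 1010 ± 300 CPM in knockout (SD, n = 3). Its curve peaked at ZT16 in wild type (fold 2.62, adjusted p = 0.00047) and ZT16.7 in knockout (fold 2.41, adjusted p = 0.0012). Ugt2b34 followed a like course, with peaks at ZT16 (fold 1.77, adjusted p = 0.00069) and ZT16.3 (fold 1.63, adjusted p = 0.0033). Ugt2b36 peaked at ZT16.1 (fold 1.97, adjusted p = 0.0064) and ZT16.8 (fold 2.09, adjusted p = 0.0033), and Ugt2b5 at ZT15.6 (fold 1.98, adjusted p = 0.018) and ZT17 (fold 2.06, adjusted p = 0.011). The ZT16 values behind these peaks varied between mice: wild-type Ugt2b36 was at 2800, 1120 and 1390 CPM, and knockout Ugt2b36 at 3200, 1940 and 2070 CPM.

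Ugt2b1 averaged 470 ± 152 CPM at ZT4 and 3220 ± 1350 CPM at ZT16 in wild type (SD, n = 3), a curve with a fold of 4.58 (adjusted p = 0.00075). In knockout the means were 833 ± 491 and 3460 ± 2820 CPM, and the curve (fold 2.17) did not pass the test (adjusted p = 0.12). Its knockout libraries at ZT16 were at 6680, 2210 and 1480 CPM. By label, ZT4 had 2 females and 1 male per genotype, and ZT16 had 1 female and 2 males. The labelled female of wild-type ZT16 goes against its label. Ugt2b1 was higher in males than in females of knockout. Time and mix of sexes cannot be told apart in these means. Ugt3a2 passed in wild type, with a peak at ZT18.4 and a fold of 1.43 (adjusted p = 0.028), and not in knockout (fold 1.29, adjusted p = 0.16). Ugt2b35 passed in knockout, with a peak at ZT15.5 and a fold of 1.68 (adjusted p = 0.01), and not in wild type (fold 1.25, adjusted p = 0.38). Ugt1a9 passed in neither genotype (adjusted p = 0.87 in wild type and 0.21 in knockout).

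The rhythm calls moved with the libraries of ZT16 and ZT20. The Ugt2 transcripts are poor in GC (38.8% to 41.6%, within the lowest 2.36% to 9.31% of tested genes), while Ugt1a1 has 47.2% (percentile 34.5), and the libraries of ZT16 and ZT20 differ from the others in GC trend. With each library's GC trend removed, 5 of 9 genes were called in wild type (43.9% of all tested genes): Ugt1a1 (adjusted p = 0.0063), Ugt2a3 (0.0049), Ugt2b1 (0.015), Ugt2b35 (0.0025) and Ugt2b36 (0.042). Ugt2b5, Ugt2b34 and Ugt3a2 were not (0.059, 0.083 and 0.5). In knockout 2 of 9 genes were called then (24.7% of all tested genes), Ugt1a1 (0.02) and Ugt3a2 (0.03).

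Without the ZT16 and ZT20 libraries 4 of 9 genes were called in wild type (16.3% of all tested genes): Ugt2a3 (adjusted p = 0.00089), Ugt2b34 (0.026), Ugt2b36 (0.025) and Ugt2b5 (0.03), with Ugt1a1 at 0.23. In knockout edgeR then called 0 of 9 (0.724% of all tested genes), with 2 at an unadjusted p under 0.05. Single libraries also carried calls. In wild type, Ugt2b5 was lost without ZT16 replicate 1 or 3, Ugt2b36 without ZT16 replicate 1, and Ugt3a2 without ZT20 replicate 1 or 3 (adjusted p = 0.065 to 0.12). In knockout, Ugt2b5 was lost without ZT16 replicate 1 or 3 and Ugt2b35 without ZT16 replicate 3 (0.051 to 0.079), and Ugt2b1 passed without ZT20 replicate 3 (0.049).

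The third comparison set labelled females against labelled males within each genotype. In knockout livers 5 of 9 genes differed by sex (6.46% of all tested genes did, 3.4% higher in females and 3.06% higher in males): Ugt1a9 was 10-fold and Ugt1a1 2.01-fold higher in females, while Ugt2b1 was 3.3-fold, Ugt2b5 1.65-fold and Ugt2b35 1.49-fold higher in males. In wild-type livers 1 of 9 was called, Ugt2b35, 1.55-fold higher in males, where 3.99% of all tested genes were called (2.07% higher in females and 1.92% in males). The medians of the 9 log2 differences, females over males, were -0.25 in knockout and -0.10 in wild type, against -0.01 and -0.02 over all tested genes.

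Ugt1a9 in knockout was at 2.66 to 30.5 CPM in females (median 12.7, n = 9) and 0.75 to 2.32 CPM in males (median 1.89, n = 9). These sets did not overlap, and the log2 difference was 3.33 ± 0.30 (SE, adjusted p = 2.6e-08). In wild type Ugt1a9 was at 27 to 109 CPM in females (median 56.2) and 24.6 to 62.4 CPM in males (median 33), and its log2 difference of 0.60 ± 0.24 (95% interval 0.12 to 1.07) did not pass the test (adjusted p = 0.18). The sex difference itself was larger in knockout by 2.73 ± 0.38 on the log2 scale (95% interval 1.98 to 3.48, adjusted p = 0.00048). Ugt1a9 was 1 of 13 genes among 13201 (0.0985%) whose sex difference was called unequal between genotypes, and the 1 called of the 9 transferases.

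The unequal sex difference of Ugt1a9 was 2.61 (adjusted p = 0.00072) without wild-type ZT16 replicate 3, 2.45 (adjusted p = 0.02) without all ZT16 and ZT20 libraries, 2.79 (adjusted p = 0.00055) with the GC trend removed and 2.74 (adjusted p = 4e-09) in DESeq2. In the 12 libraries of ZT16 and ZT20 alone it was 3.22 (adjusted p = 0.92). For Ugt2b1 the knockout sex difference minus the wild-type one was -0.99 ± 0.44 (adjusted p = 0.62), and for Ugt1a1 it was 0.81 ± 0.40 (adjusted p = 0.67), and neither passed the test.

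**Figure D4:**
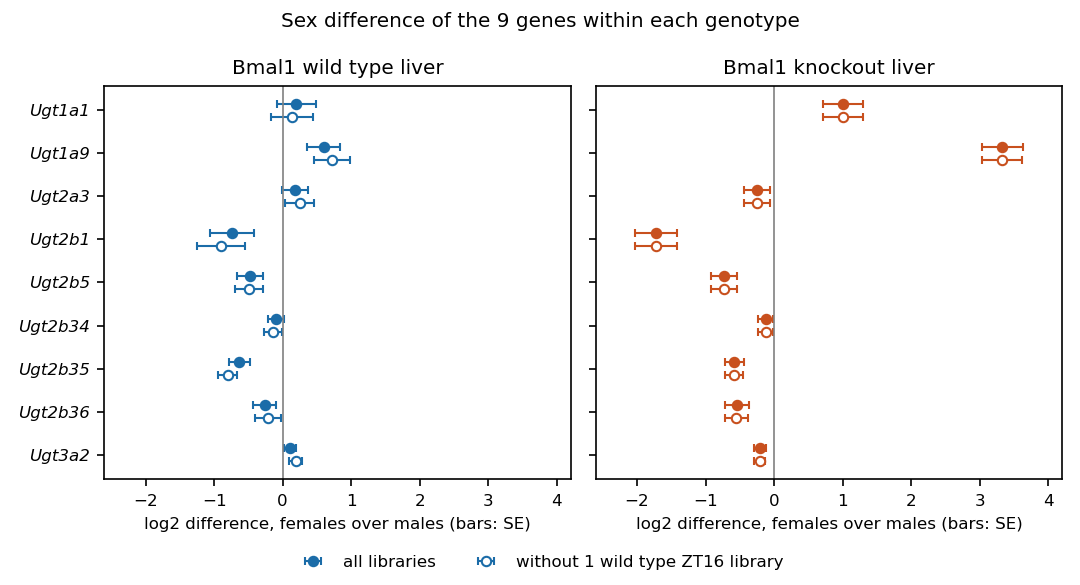
Log2 difference of labelled females over labelled males, with the standard error as bars, for the 9 genes in wild type and in knockout, filled for all libraries and open without wild-type ZT16 replicate 3. Ugt1a9 lies at 0.60 in wild type and 3.33 in knockout, and Ugt2b1 at -0.74 and -1.72.

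Ugt2b1 in knockout was at 256 to 1480 CPM in females (median 646) and 1230 to 6680 CPM in males (median 2230), overlapping through 2 females at 1240 and 1480 CPM and 1 male at 1230 CPM. Its log2 difference was -1.72 ± 0.31 (SE, adjusted p = 7e-04). In wild type the ranges were 326 to 3150 and 638 to 4600 CPM (medians 524 and 1120), with a log2 difference of -0.74 ± 0.32 (adjusted p = 0.21). Without the wild-type library that goes against its label, wild-type females reached 1780 CPM and the log2 difference was -0.90 (adjusted p = 0.11).

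Ugt2b35 was higher in males of both genotypes. In wild type, females held 178 to 427 CPM (median 221) and males 338 to 551 CPM (median 381), a log2 difference of -0.63 ± 0.15 (SE, adjusted p = 0.011). The call was lost without wild-type ZT0 replicate 1 or ZT12 replicate 1 (adjusted p = 0.058 to 0.081). Without ZT16 replicate 3, which goes against its label, females reached only 318 CPM and no longer overlapped the males, and the difference was -0.80 (adjusted p = 0.00047). In knockout, females held 254 to 731 CPM and males 502 to 867 CPM, a difference of -0.58 ± 0.14 (adjusted p = 0.013). Ugt2b5 in knockout was at 729 to 2160 CPM in females and 1140 to 3510 CPM in males (medians 895 and 1350), a difference of -0.73 ± 0.19 (adjusted p = 0.018). Both knockout calls were lost without knockout ZT0 replicate 3, ZT4 replicate 2 or ZT20 replicate 2 (adjusted p = 0.051 to 0.14), and each of these left 2 of 9 genes called.

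Ugt1a1 in knockout was at 42.8 to 338 CPM in females (median 209) and 18.3 to 194 CPM in males (median 93.6), a log2 difference of 1.01 ± 0.29 (SE, adjusted p = 0.032). That call was lost (adjusted p = 0.05 to 0.14) without any 1 of 7 knockout libraries: ZT0 replicate 1 or 3, ZT4 replicate 2 or 3, ZT12 replicate 1, ZT16 replicate 3 or ZT20 replicate 2. Ugt2b36 in knockout lay at -0.54 ± 0.17 (adjusted p = 0.053), just outside the threshold, and passed (0.021 to 0.05) in 8 of the 36 fits without 1 library: those without wild-type ZT12 replicate 1, ZT16 replicate 1, 2 or 3, ZT20 replicate 2 or 3, or knockout ZT8 replicate 1 or ZT16 replicate 2. Without the ZT16 and ZT20 libraries, 5 of 9 genes differed by sex in wild type (9.98% of all tested genes): Ugt1a9 (0.88, adjusted p = 0.041), Ugt2b1 (-1.11, 0.0022), Ugt2b35 (-0.87, 1.6e-05), Ugt2b36 (-0.39, 0.02) and Ugt2b5 (-0.65, 0.00078). In knockout 6 of 9 did then (5.05%). With each library's GC trend removed, 2 of 9 genes differed by sex in wild type (4.86%), Ugt2b35 and Ugt2b5, and 6 of 9 in knockout (7.78%). Of the other transferases, Ugt1a5 was higher in wild-type females (2.04 ± 0.48, adjusted p = 0.013) and Ugt2b38 lower in knockout females (-3.11 ± 0.78, adjusted p = 0.013).

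Across the 36 libraries, which share genotype, time and sex structure, Pearson's r of log2 CPM between the 6 Ugt2 genes was positive in all 15 pairs but of unequal size. It was 0.37 between Ugt2b34 and Ugt2b35, 0.40 between Ugt2a3 and Ugt2b35, 0.93 between Ugt2b5 and Ugt2b36, 0.87 between Ugt2b1 and Ugt2b5 and 0.84 between Ugt2a3 and Ugt2b36. Within groups and sex, that is on deviations from the fitted means, these were 0.61, 0.53, 0.93, 0.80 and 0.94, and the lowest was 0.43, between Ugt2b34 and Ugt2b36. For Ugt1a1, r with Ugt2b36 was -0.88 over all libraries and -0.87 within groups and sex. Ugt1a9 and Ugt2b35 were opposed over all libraries (r = -0.75) but not within groups and sex (0.01), and Ugt1a1 and Ugt1a9, of the same locus, correlated at 0.52 and 0.19. The fitted means have 1 sex term for both genotypes. Deviations of Ugt1a9 therefore still hold part of its sex difference, which was unequal between genotypes. These are descriptions over 36 libraries that also share the GC trend noted for the night libraries.

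Among 11667 candidate genes, those with the most similar pattern over the 36 libraries by Pearson's r were Aldh3a2 (0.92), Ppl (0.90) and Capn10 (0.88) for Ugt1a9. For Ugt1a1 they were Myo1d, Hnrnpul1 and Fads2 (0.95 each), and for Ugt2b1 Hsd3b3 (0.94), Nars2 (0.91) and Tpmt (0.90). Ugt2b5 had Ugt2b36 (0.93), Arl6ip1 and Mrpl20 (0.92 each), and Ugt2b36 had Psmb7, Actr10 (0.95 each) and Rnf138 (0.94). Ugt2a3 was nearest Fam82b (0.97), Dars and Lypla1 (0.95 each), and Ugt2b34 was nearest Rbm25 (0.92), Akr1c14 (0.91) and Lin7c (0.90). Ugt2b35 was nearest Nox4 (0.88), Scp2 and Ociad2 (0.86 each), and Ugt3a2 was nearest Xrcc6 (0.86), Metap1d and Rpl10 (0.84 each).

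Genes that serve the same reaction moved in both directions. Over all tested genes 35.7% were called between genotypes, 17.6% higher and 18.1% lower in knockout. Of 10 genes of UDP-glucuronate supply, Ugp2, which makes UDP-glucose, rose from 483 to 712 CPM (log2 fold change 0.50 ± 0.07, SE, adjusted p = 2.9e-06). Ugdh, which oxidises UDP-glucose to UDP-glucuronate, fell from 238 to 183 CPM (-0.37 ± 0.11, adjusted p = 0.0084), and the transporter gene Slc35d2 fell from 49.6 to 39.3 CPM (-0.32 ± 0.10, adjusted p = 0.012). The other 7 did not pass, and the list's median was -0.00. Of 6 tested genes of glucuronide breakdown and glucuronate use, Akr1a4 (0.39 ± 0.06) and Gulo (0.35 ± 0.10), both of the route from glucuronate to vitamin C, rose, with a median of 0.04. Gusb, the glucuronidase, was at 25 and 25.2 CPM. Of 8 transporter genes, Abcc3, an exporter of glucuronides to blood, rose from 280 to 367 CPM (0.41 ± 0.10, adjusted p = 0.0021), Slco1a4 rose (1.03 ± 0.19) and Abcc4 fell (-1.29 ± 0.17), with a median of -0.12. Abcc2, the canalicular exporter of bilirubin glucuronide, was at -0.23 (95% interval -0.48 to 0.01).

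Of 16 genes listed as regulators of transferase genes, 8 were called, 7 of them lower in knockout, with a list median of -0.09. Over all tested genes 35.7% were called, 18.1% lower in knockout. The list and the 7 include Por, the reductase that serves cytochromes P450, which is not a transcriptional regulator. Por (-0.90 ± 0.12) and Ppara (-0.92 ± 0.16), the receptor for fatty acids, fell most, followed by Cebpa (-0.46 ± 0.07) and Cebpb (-0.43 ± 0.15). Nr3c1 (-0.31), Nr1h4 (-0.27) and Nr1i2 (-0.26), the glucocorticoid receptor, FXR and PXR, fell by less, and Ahr, the aryl hydrocarbon receptor, rose (0.40 ± 0.11). Nr1i3, the CAR receptor, was at -0.04 (95% interval -0.30 to 0.22). Of 6 clock output factors, Nr1d1 (-3.05 ± 0.32), Nr1d2 (-2.58 ± 0.13), Dbp (-1.74 ± 0.13) and Tef (-0.23 ± 0.07) fell and Nfil3 rose (0.58 ± 0.13), with a median of -0.98. Of 8 genes around heme breakdown and bilirubin uptake, Hmox2 rose (0.51 ± 0.07). Hmox1 (-0.56 ± 0.15), Blvrb (-0.46 ± 0.08) and Gsta2 (-1.63 ± 0.25) fell, as did Gsta1, from 4.85 ± 13 to 0.384 ± 0.355 CPM (SD, n = 18 mice each). The list median was -0.35, and the wild-type SD of Gsta1 exceeded its mean.

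Some markers of other liver cells also differed between genotypes. In whole liver, fewer cells of a type and less RNA per cell cannot be told apart. Of all tested genes 35.7% were called, 17.6% higher and 18.1% lower in knockout. Lists with only 1 or 2 genes called are not set apart from these shares. All 10 of 10 macrophage markers in the table fell in knockout, with a median of -0.72 and sums of 124 to 534 CPM among wild-type mice and 83 to 400 CPM in knockout. By labelled sex, 3 of 10 were called higher in females in knockout and 1 of 10 in wild type. The median log2 differences, females over males, were 0.74 and 0.66. Of all tested genes, 3.4% and 2.07% were called higher in females. Of 8 sinusoidal endothelial markers 5 fell (sums of 159 to 329 and 147 to 303 CPM), as did 2 of 7 stellate cell (92 to 610 and 85.8 to 562 CPM), 2 of 5 lymphocyte (1.24 to 11.5 and 1.08 to 8.08 CPM) and 1 of 5 red cell markers (29.4 to 417 and 9.08 to 215 CPM). Of 5 bile duct markers Sox9 rose and Krt7 fell (52.5 to 160 and 41.1 to 151 CPM). Hepatocyte markers, of the cells known to hold most transferase mRNA, gave 2 of 9 called, Cyp2e1 (0.37 ± 0.14) and Fgb (0.33 ± 0.07), both higher, with a median of 0.01. Of 6 markers of kidney and intestine, which also express transferases, 5 were too low to test and Fabp2 was at 83.4 and 103 CPM; of 5 pancreas markers, Cela1 rose, 1 of 2 tested. No marker in the table was at 0 in every library, and the part of these cells in the transferase results was not tested.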

How the data were processed

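Liver mRNA was sequenced from 36 mice with a stranded kit, per the labels' protocols. CASAVA, STAR 2.4.0f1 and mm9 are named in the submitters' processing notes, and the counting program and annotation are not given in the sources used here. The authors deposited whole-number counts per gene on the sense strand, in a minimum form. Groups came from the labels. edgeR 4.0.16 (R 4.3.3) was run on all genes that passed filterByExpr (minimum count 10, minimum total 15): TMM scaling, quasi-likelihood F tests with 12 group means and labelled sex, a cosine fit of 24 h period, and sex within genotype. Standard errors came from the F statistic, 95% intervals were 1.96 SE either side, and p-values were adjusted by Benjamini-Hochberg over 13201 genes. p-values measure the spread between single mice, and the 36 pairs of replicates differed by 11.3 to 234 times the binomial variance. Lengths, GC content (known for 12906 tested genes, 97.8%) and shared windows came from GENCODE vM21 transcripts. Promoters came from RefSeq, searched with Python 3.11.15 and aligned with Biopython 1.88. Likeness of pattern is Pearson's r of log2 CPM (prior count 2). Fits were tested on simulated data first. Genes named are the 9 members and genes of fixed lists, whatever their test, and 1 gene of the lists is not reported here by name. The members and lists were chosen with earlier results of these data known. Alternatives were other scaling, filters, covariates, libraries, GC removal (spline with 5 df), cage as a block, DESeq2 1.42.0 and each library left out.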

Additional observations from a re-analysis of the deposited data

Results flagged for a closer look

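The sex difference of Ugt1a9 mRNA was unequal between the genotypes: the log2 difference of labelled females over labelled males was 0.60 ± 0.24 in wild type and 3.33 ± 0.30 in knockout (SE, 9 mice of each labelled sex per genotype), and the knockout value was larger by 2.73 (adjusted p = 0.00048 in edgeR's test of the difference itself). It drew attention because 2 genotypes gave different effects of the same contrast. All 9 knockout females were above all 9 knockout males, while in wild type the sexes overlapped. The share of all tested genes whose labelled sexes separate in this way was not counted.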

How the results depend on the processing

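Values of single genes were followed for genotype over all times, sex within genotype and the unequal sex difference, not for rhythms or single times. When 1 library was left out, 1259 kept their side of the threshold, 11 newly passed it and 26 no longer did. Under the other alternatives these were 328, 16 and 43. The 1259 and 328 include uncalled values whose sign turned, such as Ugt2a3 between genotypes (-0.15 to 0.01 with 1 library left out). No direction of a called value turned. Over all times, 6 of 9 genes were called; females alone gave 2, females without ZT16 gave 2, ZT16 and ZT20 alone gave 1, and each of 3 fits with cage as a replicate block gave 0 (2 at an unadjusted p under 0.05 in each), and leaving out 1 library gave 5 to 6. Of the 54 tests at single times 7 were called, and 0 without the sex covariate (12 at an unadjusted p under 0.05, edgeR; DESeq2, with the covariate, called 9), and 5 to 10 with 1 library left out. Wild-type rhythms went from 7 to 4 without ZT16 and ZT20 and to 3 without wild-type ZT16 replicate 3 and with the GC trend removed (5 to 7 with 1 library left out). Knockout rhythms went from 6 to 2 with the GC trend removed, with or without that replicate, and to 0 without ZT16 and ZT20 (4 to 7 with 1 left out). Sex differences in wild type went from 1 to 2 with the GC trend removed, 5 without ZT16 and ZT20, 3 without ZT16 replicate 3 and the GC trend, and 0 in ZT16 and ZT20 alone (0 to 1 with 1 left out). In knockout they went from 5 to 0 in ZT16 and ZT20 alone, with 2 at an unadjusted p under 0.05 (2 to 6 with 1 left out). The unequal sex difference went from 1 to 0 in ZT16 and ZT20 alone, with 2 at an unadjusted p under 0.05 (1 to 1 with 1 left out). Differences of rhythm and of genotype over times stayed at 0 to 0. Where fewer libraries were used, fewer mice entered the fit; otherwise the cause was not tested. Plain library totals gave 6480 CPM for the 9 genes together, against 6640 with TMM. The fits for females without ZT16, for ZT16 replicate 3 with the GC trend, and with cage as a block were chosen after seeing the data. Cage was used in no other comparison. Replicate numbers only name libraries and were not used to pair them. At 9 to 30 counts, Ugt1a9 in knockout males is limited by depth.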

Other observations

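Other conjugating enzymes of the liver moved in both directions with Bmal1 loss. Of 14 tested, 8 were called (35.7% of all tested genes were), 4 higher and 4 lower, with a median log2 fold change of 0.02. The sulfotransferase genes Sult1d1 (296 to 443 CPM, 0.68 ± 0.13, adjusted p = 0.00016) and Sult1b1 (46.7 to 72.5 CPM, 0.61 ± 0.15, adjusted p = 0.0016) rose, and Sult1e1, the oestrogen sulfotransferase, went from 0.614 CPM in wild type to 61.4 CPM in knockout (adjusted p = 3.7e-12). Sult1a1, which sulfates phenols, fell from 530 to 325 CPM (-0.73 ± 0.17, adjusted p = 0.0014), and Sult2a1 went from 24.9 to 0.245 CPM (adjusted p = 0.012). The glutathione transferase gene Gstm1 rose from 1160 to 2630 CPM (1.17 ± 0.22, adjusted p = 0.00011) and Gstp1 fell from 670 to 411 CPM (-0.73 ± 0.29, adjusted p = 0.049). These means are over both sexes. In wild type, edgeR put Sult2a1 639-fold higher in labelled females (adjusted p = 8.4e-12) and Gstp1 8.67-fold higher in labelled males (adjusted p = 0.00019). The genotype difference of these genes within a single sex was not tested.

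Of 12 reference targets of xenobiotic receptors, 7 were called, 5 higher and 2 lower in knockout, with a median of 0.22. Over all tested genes 35.7% were called. Cyp2c55 went from 18.2 to 169 CPM (3.29 ± 0.31, adjusted p = 2.4e-09), Cyp2c29 from 1960 to 5260 CPM (1.43 ± 0.11, adjusted p = 2.4e-11) and Cyp2b10 from 78.4 to 141 CPM (1.12 ± 0.19, adjusted p = 3.2e-05), all known targets of CAR and PXR. Cyp1a2, a target of the aryl hydrocarbon receptor, fell from 877 to 508 CPM (-0.80 ± 0.19, adjusted p = 0.0016), as did Cyp1a1 (2.31 to 1.52 CPM, -0.58 ± 0.17). Cyp3a11, another PXR target, was at 10800 and 11200 CPM (0.08, 95% interval -0.23 to 0.39).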
